A study of Pan troglodytes with 50 samples.

Results

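The elements described here are the 66 alleles of human accelerated regions (HARs) that were most active in the HAR control library of a lentiviral reporter assay. HARs are stretches of the genome that hardly changed among other vertebrates and then changed quickly in humans. The 66 were chosen by their own readout: the mean over 3 HAR control cultures of log2((RNA + 1)/(DNA + 1)), from counts summed over barcodes and scaled to the library total (counts per 1000000, CPM), minus the median of the 120 negative control elements, had to be 0.75 or more. They are 66 of 2002 HAR alleles in that library (3.30%) and come from 38 of 714 HARs. This log2 ratio above the negative controls is called activity below, and each value is a level on that scale unless it is named as a difference.

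In the lentiviral assay a designed element of 171 bases drives a reporter whose transcript carries a 15-base barcode, and the construct integrates into the genome of the infected cells. Each element has many barcodes, so that RNA counts over DNA counts of its barcodes measure how strongly it drives transcription. Enhancers active in neural progenitors are known to bind factors that change as cells pass from making neurons to making glia, and several HARs lie beside genes of brain development. The reporter reads a sequence outside its own locus.

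All cultures were progenitors that had been derived from iPSC lines of chimpanzees and were labelled telencephalon, without any genetic change other than the reporters. Line Pt2A came from 1 chimpanzee and line Pt5C from another, and both were read at stage N2, labelled neural progenitors, and stage N3, labelled glial progenitors. The HAR control library was read in Pt2A N2 only. The HAR library, in which the elements are described here, was read in each line at each stage, which gives 4 groups. Where 4 values are given in a row below, they stand in the order Pt2A N2, then Pt5C N2, then both lines in the same order at N3. Each group had 3 cultures infected separately for 4 days, with 3 RNA and 3 DNA libraries, so p-values measure the spread between infections of 1 line and not between animals. Reporter counts hold no marker genes, so the cell type labels were not checked. The ratio is an average over a culture: fewer cells that use an element and less RNA per cell cannot be told apart.

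Total counts per library ran from 8649221 to 9464926 in DNA and from 24263262 to 25951194 in RNA of the HAR control library, and from 6641422 to 16823119 and from 5410033 to 41867492 in the HAR library. The HAR control and HAR libraries share copies: 202032 barcodes named the same element in both. What a barcode itself adds to the ratio is therefore carried from the control library, where the elements were chosen, into the HAR library. The HAR library cultures of Pt2A N2 stand apart: across the 2002 alleles their activity had Pearson's r = -0.16 with the control library, although line and stage are the same, against 0.80, 0.73 and 0.88 in the other 3 groups. Among the 66, chosen by their control values, r was 0.37, 0.47, 0.25 and 0.54 in the order of the groups. There Pt2A N2 did not have the lowest r. The alleles share barcodes between the libraries, and all these r are descriptions. Replicate 3 of Pt5C N2 stands apart as well, with r = 0.73 and 0.74 to its fellow cultures, where the other pairs of cultures within a group of the HAR library had r from 0.93 to 0.95. It gave the lowest value of the 3 for 65 of the 66 elements and for 1023 of the 2002 alleles, and the median of the 66 was 0.21 there, against 0.45 and 0.43 in replicates 1 and 2.

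The 66 elements comprise 35 human and 31 chimpanzee alleles on 20 chromosomes. None lies on the X chromosome, which holds 41 of the 2002. A HAR longer than an element was covered by overlapping tiles, and 37 of the 66 come from HARs covered by 1 tile. Of the 66, 62 belong to a matched pair, meaning the human and chimpanzee allele of the same tile, and these form 38 pairs. Both alleles were chosen in 24 pairs, the human allele alone in 9 and the chimpanzee allele alone in 5. In 4 HARs elements of more than 1 tile were chosen, and overlapping tiles share sequence. In HAR33 these are the chimpanzee allele, covered by 1 tile and counted among the 37, and human tile 2 of 2. An element had 67 to 100 barcodes, with a median of 89 against 83 over all HAR alleles.

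At the lower edge, 2xHAR.293 chimpanzee tile 2 of 2 (0.76), HAR51 chimpanzee (0.76) and 2xHAR.166 human (0.75) were just inside. 2xHAR.213 chimpanzee tile 2 of 2, 2xHAR.445 chimpanzee and 2xHAR.152 chimpanzee tile 2 of 2 were just outside, each at 0.74. The SD over the 3 control cultures was 0.01 to 0.09 for these 6, so the edge separates alleles that do not differ beyond their spread. In the control library 3 of the 120 negative controls also reached 0.75.

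The barcodes below show what was counted for the most active HAR, 2xHAR.392, and for the human allele of 2xHAR.548, which held more of its activity in the HAR library. They are those with the most RNA in the control library, 2 for each element. This choice favours lower ratios in the HAR library, and 2 barcodes cannot stand for the whole element. Sequences run from 5′ to 3′, and no letter is set apart.
2xHAR.392 chimpanzee, first: ctaagaggccggtat
2xHAR.392 chimpanzee, second: cgatagaacctagta
2xHAR.392 human, first: caactcttataccgg
2xHAR.392 human, second: caacttcgccggcgt
2xHAR.548 human tile 1 of 2, first: tcaaccagagtcgtt
2xHAR.548 human tile 1 of 2, second: ttctgattccgagtt

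The first chimpanzee barcode of 2xHAR.392 had 5044 RNA and 204 DNA counts over the 3 control cultures, and its own log2 ratio above the negative controls was 3.29. In Pt2A N2 of the HAR library it had 1204 RNA and 262 DNA counts, a ratio of 0.44. The second had ratios of 3.48 and 0.71 in the same order. The human barcodes of 2xHAR.392 went from 3.00 to -0.03 and from 2.88 to 0.15. All 4 barcodes were far lower in Pt2A N2 of the HAR library than in the control library. For 2xHAR.548 human tile 1 of 2 the first barcode had 6933 RNA and 408 DNA counts in the control library and 3991 and 512 in Pt2A N2 of the HAR library, and its ratio was 2.75 and 1.20. The second had 2.23 and 1.06, so in Pt2A N2 both barcodes of 2xHAR.548 stayed above 1 where those of 2xHAR.392 did not. In Pt5C N3 the barcodes of 2xHAR.392 were at 1.12 and 1.36 (chimpanzee) and 0.43 and 0.65 (human). Those of 2xHAR.548 were at 2.13 and 1.71 there.

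The printed barcodes lay above the median barcode of their element in Pt2A N2 of the HAR library. That median was 0.07 for 2xHAR.392 chimpanzee, -0.18 for 2xHAR.392 human and 0.69 for 2xHAR.548 human tile 1 of 2. In the control library 85.2% to 100.0% of an element's barcodes (median 97.6% over the 66; barcodes with a DNA CPM of at least 0.5) had a ratio above the negative controls, and the barcode with the most RNA gave 3.79% to 14.5% of the element's RNA. A high summed ratio in the same library chose the elements, which favours a high share of barcodes above 0. These values are descriptions. In the HAR library the median share of barcodes above the negative controls was 47.6% in Pt2A and 80.1% in Pt5C at N2, and at N3 78.0% in Pt2A and 86.0% in Pt5C. Barcode ratios of an element correlated between the control library and the groups, in order, with a median r of 0.51, 0.56, 0.55 and 0.59. Over the elements r ran from 0.19 to 0.84, 0.24 to 0.77, 0.16 to 0.91 and 0.36 to 0.89. These r describe copies shared between the libraries.

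2xHAR.392 (chromosome 18, 7442533 to 7442703, GRCh37, in the interval before PTPRM, a receptor tyrosine phosphatase gene) gave the highest 2 values of the control library. The chimpanzee allele was at 2.69, 2.61 and 2.69 in the 3 control cultures and the human allele at 2.56, 2.53 and 2.51. In the HAR library the chimpanzee allele was at 0.16, 0.12 and 0.21 in Pt2A and at 0.30, 0.19 and 0.10 in Pt5C at N2, and at N3 at 0.24, 0.15 and 0.13 in Pt2A and at 0.67, 0.70 and 0.59 in Pt5C. Its 12 HAR library cultures lay far below its 3 control cultures, with the N3 cultures of Pt5C above the other 3 groups without overlap. Its RNA was 1110 CPM in the control library (mean of 3) and 242 in Pt2A N2 of the HAR library, while its DNA was 194 and 219. The human allele went from 1024 to 239 RNA CPM, with DNA of 196 and 267. Among the 2002 alleles the chimpanzee allele ranked 1 in the control library and 145, 187, 319 and 32 in the 4 groups.

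The control library also held 150 elements of 171 bases that carry the name of a HAR and the word permuted, and 8 of them bear the name of a HAR with a chosen allele. The element named for 2xHAR.392 is printed as the counterpart of the most active HAR. Here permuted is read as shuffled.
2xHAR.392 shuffled: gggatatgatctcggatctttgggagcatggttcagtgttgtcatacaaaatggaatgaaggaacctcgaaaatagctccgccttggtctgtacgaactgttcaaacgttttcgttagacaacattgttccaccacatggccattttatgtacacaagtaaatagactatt
It was at 0.06, 0.01 and 0.11 in the 3 control cultures, where both alleles of the HAR were above 2.5. The alleles were chosen by high values in these cultures and the shuffled elements were not. Lower shuffled values were thus favoured by the choice, and what shuffling does to activity is not read from them. The other 7 were between 0.04 and 0.48, all under 0.75, with 0.48 for 2xHAR.518 and 0.44 for 2xHAR.360. Over all 150 shuffled elements the median was 0.17 and the highest 0.84, and 1 reached 0.75. The median over all HAR alleles in the same library was 0.08. The shuffled elements were read in Pt2A N2 with the control library only.

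Activity of the chosen elements was lower in every group of the HAR library than in the control library. The median over the 66 was 1.06 in the control library, 0.05 in Pt2A and 0.36 in Pt5C at N2, and at N3 0.32 in Pt2A and 0.53 in Pt5C. Means below the control mean were seen for 66, 66, 64 and 65 of the 66 in the order of the groups, and for 57.6%, 63.1%, 61.2% and 67.4% of all 2002 alleles. For 61 of the 66 every one of the 12 HAR library cultures was below every control culture, as for 29.7% of all alleles. Because high control values chose the elements, these counts are descriptions, and nothing is read from their distance to those shares. The scale of the libraries differed as well: the SD of activity over all 2002 alleles was 0.32 in the control library and 0.18, 0.14, 0.17 and 0.21 in the 4 groups. The level of 0.75 was reached by 2, 6, 11 and 20 of the 66, and by 9, 6, 16 and 20 of all 2002 alleles, so in Pt5C N2 and Pt5C N3 every allele at that level was a chosen one. Of the 66 highest alleles of a group, 17 in Pt2A and 42 in Pt5C at N2, and at N3 30 in Pt2A and 39 in Pt5C were chosen ones.

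The RNA shares shifted more than the DNA shares. High RNA over DNA in the control library chose the 66, so lower RNA against that library was favoured by the choice. These values are descriptions. Against the control library and relative to the negative controls, the RNA CPM of the 66 differed by a median log2 of -0.92 in Pt2A and -0.78 in Pt5C at N2, and at N3 -0.79 in Pt2A and -0.60 in Pt5C, where the medians over all HAR alleles were -0.07, -0.06, -0.06 and -0.06. The DNA CPM differed by 0.03, -0.09, -0.05 and -0.12, beside -0.02, 0.00, 0.01 and -0.01 over all HAR alleles. In Pt2A N2 DNA was raised for single elements, up to a log2 of 0.49, where the SD over all HAR alleles was 0.14.

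Called above the negative controls (edgeR's quasi-likelihood test on summed counts, Benjamini-Hochberg adjusted p under 0.05 over all 2440 elements) were 31 of the 66 in Pt2A and 62 in Pt5C at N2, and at N3 55 in Pt2A and 63 in Pt5C. Over all elements the same call was made for 27.4%, 31.8%, 36.9% and 37.6%. The call is against the median of the negative controls, and the spread among them is not in its error. Their SD was 0.18, 0.10, 0.19 and 0.18 in the 4 groups. In Pt2A N2, 15 of the 66 were called below the negative controls, with 33.9% over all elements. With the N3 DNA of the line as denominator, 51 of the 66 were called above in Pt2A N2, where the same change gave 22.0% of all elements, and the median of the fitted activities of the 66 moved from 0.04 to 0.17. Called above in all 4 groups were 25 of the 66, with 9.59% over all elements. Leaving Pt2A N2 aside, 52 of the 66 were called above in every remaining group, with 22.5% over all elements. The barcodes that the libraries share tie these counts to the choice.

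By size, 46 of the 66 had their highest group mean in Pt5C N3, 13 in Pt2A N3, 4 in Pt5C N2 and 3 in Pt2A N2. Over all 2002 alleles the highest group was Pt5C N3 for 645, Pt2A N3 for 416, Pt5C N2 for 169 and Pt2A N2 for 772. The lowest group was Pt2A N2 for 51 of the 66. That count has no share over all alleles beside it, so nothing is read from it.

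The highest mean over the 4 groups belonged to 2xHAR.548 human tile 1 of 2 (chromosome 3, 70655294 to 70655464), a HAR near FOXP1, a transcription factor gene of neural development. Its activity was 2.02, 2.04 and 2.05 in the control cultures. In the HAR library it was 0.73, 0.77 and 0.80 in Pt2A and 1.18, 1.15 and 0.68 in Pt5C at N2, and at N3 1.29, 1.25 and 1.20 in Pt2A and 1.55, 1.61 and 1.57 in Pt5C. It ranked 8, 3, 3 and 2 among the alleles. The means were lowest in Pt2A N2 and highest in Pt5C N3, and the N2 cultures of the lines overlapped through replicate 3 of Pt5C. Tile 2 of 2 of the same allele (70655342 to 70655512), which overlaps it, was at 1.79, 1.72 and 1.78 in the control cultures and differed more between groups. It was at 0.07, -0.08 and 0.15 in Pt2A and 0.69, 0.63 and 0.25 in Pt5C at N2, and at N3 1.45, 1.46 and 1.29 in Pt2A (its rank there was 1) and 0.92, 0.97 and 0.91 in Pt5C. No pair of these groups overlapped.

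HAR156 followed in both alleles (chromosome 8, 116791662 to 116791832). The chimpanzee allele was at 2.04, 2.11 and 2.11 in the control cultures and ranked 1 in Pt5C N2 and Pt5C N3, with 1.75, 1.73 and 1.04 and with 1.64, 1.69 and 1.63. In Pt2A it was at 0.59, 0.64 and 0.62 in N2 and 0.23, 0.34 and 0.38 in N3. The Pt5C cultures were above the Pt2A cultures at both stages. The human allele had group means of 0.58 ± 0.03, 1.32 ± 0.37, 0.31 ± 0.03 and 1.46 ± 0.002 (SD, n = 3), the same order of groups as the chimpanzee allele.

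2xHAR.10, which lies in PAX8, a paired box transcription factor gene, gave 3 of the 8 highest elements (HAR at chromosome 2, 113992950 to 113993240). 2xHAR.10 human tile 1 of 2 (113992950 to 113993120) was at 1.56, 1.54 and 1.57 in the control cultures, 0.28, 0.32 and 0.35 in Pt2A and 0.84, 0.78 and 0.42 in Pt5C at N2, and at N3 1.14, 1.18 and 1.22 in Pt2A and 1.25, 1.22 and 1.31 in Pt5C. The N3 cultures were all above the N2 cultures. Tile 2 of 2 had group means of 0.35, 0.60, 1.40 and 1.00 for the human allele and 0.35, 0.51, 1.23 and 0.83 for the chimpanzee allele. In both alleles of tile 2 Pt2A N3 was the highest group, where tile 1 was highest in Pt5C N3.

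Both alleles of 2xHAR.176 (chromosome 4, 146403095 to 146403265) complete the 8. It lies at the start of SMAD1, a gene of a signal transducer of bone morphogenetic proteins. The human allele was at 1.36, 1.39 and 1.37 in the control cultures, 0.30, 0.33 and 0.35 in Pt2A and 0.84, 0.84 and 0.43 in Pt5C at N2, and at N3 0.93, 1.02 and 1.01 in Pt2A and 1.18, 1.23 and 1.24 in Pt5C. No 2 of these groups overlapped. It was also among the most abundant elements, with 2471 DNA CPM in the control library, against 194 for 2xHAR.392 chimpanzee.

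The 4 lowest means over the groups belonged to 2xHAR.461 chimpanzee tile 1 of 2, HAR51 human, HAR33 human tile 2 of 2 and 2xHAR.511 chimpanzee, at 0.07, 0.07, 0.04 and -0.01. 2xHAR.511 chimpanzee (chromosome 10, 103726663 to 103726833) was at 0.76, 0.82 and 0.87 in the control cultures, with group means of -0.02, -0.09, 0.10 and -0.03 in the HAR library. Its 12 HAR library cultures ranged from -0.11 to 0.14. HAR51 human (chromosome 16, 63850316 to 63850486) was at 0.83 in each control culture and from -0.00 to 0.17 in the HAR library. Both were called above the median negative control in Pt2A N3 alone, and 2xHAR.511 chimpanzee was called below it in Pt5C N2. Their Pt2A N3 means, 0.10 for 2xHAR.511 chimpanzee and 0.15 for HAR51 human, were smaller than the SD of the negative controls there, 0.19. For HAR51 human, Pt2A N2 was called too with the replicate block (adjusted p = 0.035), without the barcode with the most RNA (0.049) and with the TMM centre of all elements as zero (0.024). With the spread between barcodes as error, 2xHAR.511 chimpanzee lost the calls in Pt2A N3 (adjusted p = 0.17) and Pt5C N2 (0.12). HAR33 human tile 2 of 2 (chromosome 22, 47241214 to 47241384) was at 0.73, 0.81 and 0.78 in the control cultures, and its Pt2A N2 cultures at -0.41, -0.57 and -0.38 were below all others of the HAR library, which ran up to 0.28. Its DNA was 293 CPM there and 192 in Pt2A N3. With the N3 DNA as denominator its fitted activity in Pt2A N2 was 0.14 in place of -0.46.

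Stage differences, N3 minus N2, are differences of log2 RNA over DNA within a line, centred by TMM over all elements. The chosen elements were more often called higher than lower at N3, but these counts are tied to the choice by control values. Over all HAR alleles r with the control library was -0.16 in Pt2A N2 and 0.73 in Pt2A N3. In Pt5C it was 0.80 at N2 and 0.88 at N3. In Pt2A 41 of the 66 were called higher and 10 lower, where 32.4% and 34.9% of all elements were. In Pt5C 42 were called higher and 1 lower, with 12.3% and 5.12% over all elements. The median difference of the 66 was 0.32 in Pt2A and 0.24 in Pt5C, beside -0.02 and 0.00 over all elements. With the N3 DNA as denominator at both stages the Pt2A median was 0.14, 38 were called higher and 16 lower (28.6% and 28.3% of all elements), 45 of the 51 calls kept their direction and 7 of the 66 differences changed sign.

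In Pt2A the largest rises were those of 2xHAR.548 human tile 2 of 2 (1.34 ± 0.08, SE, adjusted p = 2.5e-14, edgeR) and of both alleles of 2xHAR.275 (chromosome 17, 3417157 to 3417327). 2xHAR.275 human rose by 1.16 ± 0.07 (adjusted p = 1.7e-13) and the chimpanzee allele by 1.15 ± 0.08 (adjusted p = 6.0e-12). The human allele was at -0.32, -0.35 and -0.14 in Pt2A N2 and at 0.86, 0.93 and 0.92 in Pt2A N3. These cultures did not overlap, and its DNA was 163 CPM in Pt2A N2 against 116 in Pt2A N3. The rises were 0.89, 0.67 and 0.78, in the order given, with the N3 DNA as denominator.

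The largest falls in Pt2A were those of 2xHAR.49 chimpanzee tile 1 of 2 (-0.49 ± 0.10, adjusted p = 0.00011), 2xHAR.518 chimpanzee (-0.48 ± 0.04, adjusted p = 2.5e-10) and 2xHAR.127 human tile 1 of 3 (-0.40 ± 0.07, adjusted p = 1.4e-05). 2xHAR.49 lies near MEIS1, a homeobox gene, 2xHAR.518 in NRXN3, a gene of a presynaptic adhesion protein, and 2xHAR.127 at ROBO2, an axon guidance receptor gene. 2xHAR.49 chimpanzee tile 1 of 2 (chromosome 2, 66913929 to 66914099) was at 0.45, 0.49 and 0.55 in Pt2A N2 and at 0.10, 0.05 and -0.05 in Pt2A N3, without overlap. 2xHAR.518 chimpanzee (chromosome 14, 80280283 to 80280453) was at 0.71, 0.79 and 0.83 in Pt2A N2 and at 0.24, 0.36 and 0.36 in Pt2A N3, without overlap. The 3 falls kept their direction with the N3 DNA as denominator, at -0.36, -0.46 and -0.28.

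In Pt5C the largest rises were those of 2xHAR.10 human tile 1 of 2 (0.57 ± 0.07, adjusted p = 2.3e-06), 2xHAR.548 human tile 1 of 2 (0.55 ± 0.10, adjusted p = 0.00044) and 2xHAR.176 human (0.50 ± 0.08, adjusted p = 2.0e-05). The 1 fall was that of 2xHAR.49 chimpanzee tile 1 of 2, at 0.90, 0.89 and 0.55 in Pt5C N2 and 0.45, 0.41 and 0.40 in Pt5C N3 (-0.36 ± 0.10, adjusted p = 0.011). Without replicate 2 of Pt5C N3 its adjusted p was 0.053. This element was the only one of the 66 called lower at N3 in Pt5C, and it was called lower in Pt2A too. The difference between the lines' stage differences was called positive (Pt5C above Pt2A) for 11 of the 66 and negative for 21, with 15.7% and 17.6% over all elements.

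Line differences, Pt5C minus Pt2A at the same stage, share their groups with the stage differences. Their counts are tied to the choice in the same way. At N2 55 of the 66 were called higher in Pt5C and 4 lower, where 29.6% and 29.7% of all elements were. At N3 39 were called higher and 9 lower, with 13.4% and 9.51% over all elements. The median difference of the 66 was 0.30 at N2, or 0.19 with the N3 DNA as denominator, and 0.27 at N3, beside -0.02 and 0.01 over all elements.

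At N2 the largest were those of HAR156 chimpanzee (0.92 ± 0.13, adjusted p = 1.3e-06), 2xHAR.183 human (0.84 ± 0.08, adjusted p = 1.4e-08) and HAR125 chimpanzee (0.82 ± 0.07, adjusted p = 4.8e-09). 2xHAR.183 (chromosome 2, 11531871 to 11532041) lies between ROCK2, a kinase gene, and E2F6, and HAR125 (chromosome 7, 37026137 to 37026307) in ELMO1, a gene of cell migration. 2xHAR.183 human was at -0.06, -0.14 and -0.02 in Pt2A N2 and at 0.94, 0.95 and 0.40 in Pt5C N2. HAR125 chimpanzee was at -0.21, -0.36 and -0.28 and at 0.74, 0.68 and 0.21. In both the lines did not overlap. The differences were 0.99, 0.63 and 0.52 with the N3 DNA as denominator.

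Lower in Pt5C at N2 were 2xHAR.518 chimpanzee (-0.46 ± 0.04, adjusted p = 5.4e-09), 2xHAR.518 human (-0.22 ± 0.04, adjusted p = 2.1e-05) and 2xHAR.127 human tile 1 of 3 (-0.17 ± 0.07, adjusted p = 0.034). The last was lost with the N3 DNA as denominator (-0.12, adjusted p = 0.21), with DESeq2 (adjusted p = 0.052), with centring on the negative controls (0.058), and without replicate 1, 2 or 3 of Pt2A N2 (0.055, 0.062 and 0.097). At N3 HAR156 led in both alleles, the chimpanzee allele with 1.35 ± 0.13 (adjusted p = 6.0e-09) and the human allele with 1.16 ± 0.13 (adjusted p = 3.3e-08), before 2xHAR.9 chimpanzee (chromosome 20, 708949 to 709119) with 0.64 ± 0.07 (adjusted p = 1.8e-08). Lower in Pt5C at N3 were 2xHAR.548 human tile 2 of 2 (-0.47 ± 0.08, adjusted p = 7.1e-05) and tile 2 of 2 of 2xHAR.10, human (-0.40 ± 0.09, adjusted p = 0.00086) and chimpanzee (-0.39 ± 0.07, adjusted p = 3.6e-05).

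Alleles were compared as human minus chimpanzee for the 38 pairs that hold a chosen element. A difference was called where edgeR's test over cultures and a test over barcodes (z test with a delta-method SE) both had an adjusted p under 0.05 over all 839 pairs, with 1 sign. In the mean of the 4 groups 6 of the 38 were called, where 1.55% of all pairs were. By group 7 were called in Pt2A N2 (5.36% of all pairs), 9 in Pt5C N2 (3.22%), and at N3 7 in Pt2A (2.5%) and 8 in Pt5C (3.46%). The mean difference had the sign of the control library in 34 of the 38, on the same barcodes. The choice favours pairs that differ in the control library, so these counts are tied to it.

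The human allele was higher in 4 of the 6. For 2xHAR.10 tile 1 of 2 the control means were 1.55 and 0.64, and the human allele alone was chosen. The difference was 0.29, 0.22 and 0.26 in Pt2A and 0.43, 0.41 and 0.24 in Pt5C at N2, and at N3 0.73, 0.74 and 0.75 in Pt2A and 0.62, 0.54 and 0.62 in Pt5C. It was above 0 in 12 of 12 cultures and called in each group, and its mean was 0.49 with a barcode SE of 0.06 (adjusted p = 2.2e-16 by edgeR and 4.9e-16 over barcodes).

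2xHAR.548 was called in both tiles. Tile 1 of 2, with both alleles chosen, had a mean difference of 0.48 with a barcode SE of 0.08 (adjusted p = 3.6e-10 by edgeR and 5.3e-08 over barcodes), above 0 in 12 of 12 cultures. By group it was 0.48, 0.15, 0.75 and 0.54, and it was called in every group but Pt5C N2. Tile 2 of 2, with the human allele alone chosen, had control means of 1.76 and 0.70. Its mean difference was 0.49 with a barcode SE of 0.08 (adjusted p = 1.3e-16 by edgeR and 2.3e-08 over barcodes), above 0 in 11 of 12 cultures. By group it was 0.05, 0.29, 1.07 and 0.55, with 1.05, 1.11 and 1.06 in Pt2A N3 and 0.07, -0.06 and 0.14 in Pt2A N2. The tiles overlap, so the 2 calls share sequence.

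2xHAR.127 tile 1 of 3 (chromosome 3, 76414558 to 76414728) differed by 0.19 with a barcode SE of 0.05 (adjusted p = 2.0e-05 by edgeR and 0.023 over barcodes), above 0 in 12 of 12 cultures. That call was lost with the N3 DNA as denominator, without the barcode with the most RNA and without replicate 2 of Pt2A N3, with adjusted p of 0.078, 0.051 and 0.057.

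The chimpanzee allele was higher in the other 2. 2xHAR.518 had control means of 0.84 (human) and 1.63 (chimpanzee), and both alleles were chosen. The difference was -0.49, -0.57 and -0.55 in Pt2A and -0.30, -0.32 and -0.25 in Pt5C at N2, and at N3 -0.24, -0.23 and -0.34 in Pt2A and -0.36, -0.35 and -0.37 in Pt5C. It was below 0 in 12 of 12 cultures, was called in each group and had a mean of -0.36 with a barcode SE of 0.06 (adjusted p = 1.3e-18 by edgeR and 1.2e-06 over barcodes). The human allele itself was near the negative controls in 3 groups, with means of 0.04, 0.05 and 0.05, and at 0.24 in Pt2A N2.

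2xHAR.9 differed by -0.19 with a barcode SE of 0.06 (adjusted p = 2.2e-07 by edgeR and 0.023 over barcodes). It was -0.37, -0.41 and -0.18 in Pt5C N2 and -0.53, -0.51 and -0.51 in Pt5C N3, both called. In Pt2A it was -0.01, -0.04 and -0.09 in N2 and 0.10, 0.15 and 0.06 in N3, neither called. The difference between the lines was not tested. Without replicate 2 of Pt5C N2 the adjusted p of the mean was 0.051.

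Of the HARs with 1 allele chosen, 5 were named by their control difference, and 2xHAR.548 tile 2 of 2 and 2xHAR.10 tile 1 of 2 are described above. 2xHAR.513 tile 2 of 2 had control means of 1.00 (human) and 0.13 (chimpanzee). In the HAR library its human allele was at 0.51, 0.46 and 0.22 in Pt5C N2 and at 0.36, 0.35 and 0.36 in Pt5C N3, but at -0.23, -0.17 and -0.23 in Pt2A N3. Its allele difference was called in Pt5C N2 (0.33) and Pt5C N3 (0.30) and not in the mean of the 4 groups (adjusted p = 0.21 over barcodes). 2xHAR.445, with control means of 1.54 (human) and 0.74 (chimpanzee), was called in Pt5C N3 (0.36) and not in the mean (0.16, adjusted p = 0.20 over barcodes), but was called in the mean without Pt2A N2 (0.23, adjusted p = 0.020) and with the N3 DNA as denominator (0.22, adjusted p = 0.030). 2xHAR.270 tile 1 of 2, at 0.86 and 0.11 in the control library, had a difference of -0.43 in Pt2A N2, which was called, and of 0.26 in Pt5C N3, which was not, with opposite signs. Its Pt2A N2 cultures differed by -0.44, -0.41 and -0.44. The human allele's fitted activity in Pt2A N2 was -0.06, or 0.12 with the N3 DNA as denominator.

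The 2 HARs with the highest control values showed no called allele difference in the mean of the groups. HAR156 differed by -0.11 with a barcode SE of 0.06 (adjusted p = 0.20 by edgeR and 0.48 over barcodes), so it passed neither test. 2xHAR.392 differed by -0.14 with a barcode SE of 0.06 and passed edgeR's test over cultures (adjusted p = 4.5e-06) but not the one over barcodes (0.20). By group it was called in Pt2A N2 alone (-0.31, -0.34 and -0.26). The fitted activities of 2xHAR.392 in Pt2A N2 were -0.15 for the human and 0.16 for the chimpanzee allele, but 0.20 and 0.25 with the N3 DNA as denominator.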

How the data were processed

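The authors deposited whole-number counts per barcode with the name of its element for each reporter library, per the file headers and values. Per the labels' protocols a molecular identifier of 10 bases was added in the first PCR cycles. Not given in the sources used here are whether the counts are identifiers or reads, and how barcodes were assigned. Reads would not be independent molecules. Element positions come from the names in the files, 1-based on GRCh37, which the submitters' processing notes name. Neighbouring genes are background knowledge, and no gene annotation of that build was used here. The deposited peak lists and H3K27ac libraries were not used. The permutation library holds 0 of the 66 elements and was not analysed here.

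Counts were summed over barcodes. Values per culture set RNA over the DNA library of the same number, with a pseudocount of 1 CPM. Summed counts were tested with edgeR 4.0.16 under R 4.3.3 (quasi-likelihood) in 1 fit of the 24 HAR library libraries, two-sided, with at least 10 barcodes and the filterByExpr filter, which removed 0 of 2440 elements. Activity was set against the median negative control, and stage and line differences against the TMM centre. The error behind every call except the allele calls is the spread between cultures, which received the same barcoded copies. The barcode test of alleles used Python 3.11.15, numpy 2.4.6, pandas 2.3.3 and scipy 1.17.1 and needs at least 10 barcodes per allele. Both tests were run on simulated counts, which held no group or replicate that stands apart as in these data. Error rates of the calls made here are therefore not known from them.

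Named were the 8 highest and 4 lowest elements by mean over the 4 groups, the 3 elements on each side of the threshold, the 3 largest calls per direction of each stage and line difference, the pairs with a called allele difference, the 5 pairs with 1 chosen allele that differ most in the control library, and 2xHAR.548, HAR156, 2xHAR.10, 2xHAR.176, 2xHAR.183 and 2xHAR.275. 2xHAR.392 and HAR125 were described after their values were seen where they fall outside this. The elements, lists and tests were chosen with earlier results of these data known. Alternatives were other size factors, DESeq2 1.42.0, no filter, another denominator, a replicate block, other zero points, barcode errors and leaving out each culture.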

Additional observations from a re-analysis of the deposited data

Results flagged for a closer look

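The elements named for a stage difference were examined for a stage difference that differed between the lines, by the interaction of stage and line in edgeR with adjusted p under 0.05 over all elements. The difference is the N3 minus N2 change in Pt5C minus that in Pt2A, with TMM centring. For 2xHAR.548 human tile 2 of 2 it was -0.93 (adjusted p = 3.8e-07), from 1.34 in Pt2A and 0.41 in Pt5C. For 2xHAR.275 human it was -0.94 (adjusted p = 1.3e-07), from 1.16 and 0.22, and for 2xHAR.275 chimpanzee -0.84 (adjusted p = 8.7e-06), from 1.15 and 0.31. For 2xHAR.10 human tile 1 of 2 it was -0.27 (adjusted p = 0.044), from 0.84 and 0.57. It was positive for 2xHAR.518 chimpanzee, at 0.56 (adjusted p = 8.8e-08), from -0.48 and 0.08, and for 2xHAR.127 human tile 1 of 3, at 0.54 (adjusted p = 0.00014), from -0.40 and 0.14.

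With the N3 DNA of each line as denominator these were -0.68, -0.52, -0.52, -0.24, 0.62 and 0.49 in the same order. All 6 kept their sign and an adjusted p under 0.05. Each rests on the Pt2A N2 cultures, which stand apart from the control library. There was 1 chimpanzee per line, so line and animal cannot be told apart. Elements were named for the largest stage differences within a line in these same libraries. That favours a larger change in the line of naming, so these 6 values are descriptions. Named but not listed here were 2xHAR.49 chimpanzee tile 1 of 2, 2xHAR.548 human tile 1 of 2 and 2xHAR.176 human. Over all elements the interaction was called positive for 15.7% and negative for 17.6%.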

How the results depend on the processing

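The number of chosen elements was 207 at a threshold of 0.5 and 37 at 1. It was 66 with a pseudocount of 0.5 or without any 1 control culture, 57 with the trimmed centre of all elements as zero, and 76 by the median over barcodes, which shared 65 with the 66. In Pt2A N2 the number called above the negative controls was 31, 51 with the N3 DNA as denominator and 29 without any 1 culture. With the N3 DNA the fitted activity in Pt2A N2 changed sign for 29 of the 66, 26 of them from below to above 0, and 20 of the 29 were called with it. Among the elements named or described, it reversed for HAR33 human tile 2 of 2 (from -0.46 to 0.14), 2xHAR.275 human (from -0.28 to 0.20), 2xHAR.275 chimpanzee (from -0.22 to 0.14), 2xHAR.183 human (from -0.08 to 0.19), 2xHAR.183 chimpanzee (from -0.07 to 0.14), HAR125 chimpanzee (from -0.29 to 0.16), 2xHAR.392 human (from -0.15 to 0.20), 2xHAR.445 human (to 0.27) and 2xHAR.270 human tile 1 of 2 (from -0.06 to 0.12). In Pt5C N2 that of 2xHAR.518 human went from 0.04, not called, to -0.10, called. The cause was not tested.

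With the replicate number as a block, the numbers called were 32, 63, 55 and 63 for activity in the 4 groups in the order used above, 54 and 44 for stage in Pt2A and Pt5C, 59 and 49 for line at N2 and N3, and 6 allele pairs. RNA and DNA of 1 number did not deviate together (r from -0.14 to 0.08 over 12 pairs), so the numbers are not shown to pair libraries. Every other count stayed within 1.5 times its main value under the alternatives run, the count of called pairs between 5 and 9, with 9 in the mean without Pt2A N2. Without replicate 3 of Pt5C N2, 63 were called above there and 62 had a line difference at N2. Of 1669 values of these elements under alternatives, 23 lost a call, 10 gained one and 10 reversed. The planned results for the permutation library were not run, since it holds none of the 66. Depth limits the ratios of single barcodes, which rest on 156 to 519 DNA counts over 3 control libraries for those printed.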
